A study of Homo sapiens with 9 samples.

Results

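The collagen genes were the rows of the count table whose symbol reads COL, a number, A and a number, with nothing after it. There were 44 of them among 26364 gene names, and 6 further rows with a suffix (antisense genes, pseudogenes and *COL4A3BP*) were left out. The rule used no counts, but it was set with earlier results of these data known. They were counted in 9 RNA-seq libraries of A549, an epithelial cell line from a human lung adenocarcinoma, in 4 groups. Control (2 libraries) was labelled wild type. *LA* cells (2 libraries) carried the intergenic *LOC388942-ALK* fusion, made with CRISPR/Cas9 and one guide at each locus in A549 cells expressing Cas9, and were grown from single cells. sgScr (3 libraries) and sg*FOS* (2 libraries) were *LA* cells that also carried a scramble guide or a guide against *FOS*, a subunit of the AP-1 transcription factor. The labels do not say which *FOS* guide was used, or whether the *LA*, sgScr and sg*FOS* libraries came from the same clone.

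Collagens are the main proteins of the extracellular matrix. Each molecule is made of intertwined alpha chains, and each chain comes from its own gene. Fibrillar collagens (types I, II, III, V, XI and others) form the fibrils of connective tissue. Type IV forms the sheet of the basement membrane under epithelia, type VI beaded filaments, type VII the fibrils that anchor epithelium to stroma, and type XVIII a basement membrane proteoglycan. Fibril-associated collagens such as XII and XVI sit on fibril surfaces, and type XVII is a transmembrane protein of hemidesmosomes. In most tissues fibroblasts make the bulk of fibrillar collagen, while epithelial cells, tumour cells included, make basement membrane chains.

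The type IV chains are encoded in 3 pairs of genes that are transcribed away from each other. In the RefSeq promoter windows (GRCh38.p14, 250 bases before to 50 after a gene start), the starts lay 127 bases apart for *COL4A1* and *COL4A2*, 419 bases apart for *COL4A4* and *COL4A3*, and 380 bases apart for *COL4A6* and *COL4A5*. Windows were found for 32 of the 44 genes, some of which have more than 1. They were searched on both strands for TGANTCA, a core AP-1 motif, for GGGCGG, a core GC box, and for CCAAT, none of which can contain another. TGANTCA stood in 1 collagen window (2.27%), that of *COL10A1*, and in 7.71% of all 35116 windows. GGGCGG stood in 24 of the 44 collagen windows (54.5%), against 45% of all windows, and CCAAT in 14 (31.8%), against 34.6%. A match is only a match of letters. The sequences given are the stretch shared by a head-to-head pair, the upstream part of *COL4A5* from another pair, and those of *COL5A1* and *COL12A1*, genes that differed in *LA* cells. Capitals mark GGGCGG or CCAAT on either strand.
Between the *COL4A1* and *COL4A2* starts, chr13:110307158-110307283, plus strand: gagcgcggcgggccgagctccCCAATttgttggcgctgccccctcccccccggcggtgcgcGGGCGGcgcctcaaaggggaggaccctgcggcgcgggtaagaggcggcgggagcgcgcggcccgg
*COL4A5* upstream, chrX:108439588-108439837, plus strand: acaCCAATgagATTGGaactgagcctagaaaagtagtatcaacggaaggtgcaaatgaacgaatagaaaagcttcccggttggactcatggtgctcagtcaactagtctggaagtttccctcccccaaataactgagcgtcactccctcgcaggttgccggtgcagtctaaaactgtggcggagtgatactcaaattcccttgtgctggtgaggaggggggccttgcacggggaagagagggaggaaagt
*COL5A1* upstream, chr9:134641553-134641802, plus strand: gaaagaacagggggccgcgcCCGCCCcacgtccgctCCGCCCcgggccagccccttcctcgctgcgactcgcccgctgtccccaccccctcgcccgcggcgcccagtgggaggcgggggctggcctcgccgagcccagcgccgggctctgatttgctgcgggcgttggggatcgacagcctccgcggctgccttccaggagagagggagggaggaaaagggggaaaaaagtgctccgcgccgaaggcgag
*COL12A1* upstream, chr6:75206054-75206303, minus strand: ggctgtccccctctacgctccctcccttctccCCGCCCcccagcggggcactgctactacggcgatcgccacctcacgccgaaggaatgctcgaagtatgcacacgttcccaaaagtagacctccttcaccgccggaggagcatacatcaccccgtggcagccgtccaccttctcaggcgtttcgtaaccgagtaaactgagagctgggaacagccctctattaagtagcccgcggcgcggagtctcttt

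Total counts per library ranged from 14507228 to 20456341. The control libraries differed strongly from each other, as did the *LA* libraries, where chi-square over genes, divided by its degrees of freedom, was 134 and 62.3 against 1.76 to 2.72 for pairs of sgScr or sg*FOS* libraries. The p-values measure the spread between the libraries of a group, which may be technical. The labels give replicate numbers and do not say whether replicates were separate cultures. In sg*FOS* against sgScr this spread was small, so small p-values there do not measure how far separately edited cultures would differ. In *LA* against control the fold change also followed transcript length across 14161 genes (Spearman 0.518, genes not being independent replicates), and the collagens tested had long transcripts, with a median of 6531 bases against 3744 for all genes tested. Values from a fit corrected for length and GC content are therefore given beside the uncorrected ones in that comparison. In sg*FOS* against sgScr the fold change followed GC content across 13956 genes (Spearman 0.257). The collagens tested there had a median GC content of 59.5%, against 48.2% for all genes tested. *FOS* itself had 167 and 155 counts in control, 5448 and 1660 in *LA*, 4198, 4037 and 3528 in sgScr, and 1008 and 1113 in sg*FOS*.

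The cells transcribed a narrow set of collagen genes. Of the 44 genes, 3 (*COL19A1*, *COL25A1* and *COL6A5*) had no count in any library, which allows up to 3 counts in each, and 7 never had more than 3. In all, 24 genes passed the expression filter in at least 1 comparison. The 20 that passed in none did not exceed 18 counts in any library. *COL1A2*, the partner chain of *COL1A1* in type I collagen, was among them, with 2 counts in sg*FOS* replicate 2 and 0 in the other 8 libraries. *COL6A3*, the third chain of the main form of type VI, had at most 6 counts. The levels of *COL2A1*, of the 3 type IX genes and of the type VIII genes were too low to test in any comparison.

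Collagen counts made up 0.0789% and 0.0748% of all counts in control, 0.143% and 0.184% in *LA*, 0.156% to 0.159% in sgScr, and 0.191% and 0.193% in sg*FOS*. From 62.9% to 73.1% of them in each library came from *COL5A2*, *COL18A1* and *COL7A1*. To compare genes, levels were taken as TMM-scaled counts per 1000000 counts (CPM) divided by the exon length in kilobases. On this scale the mean over the 9 libraries was 62.0 for *COL5A2* and 45.0 for *COL18A1*, followed by 15.5 for *COL7A1*. Next came *COL4A6* (5.24), *COL5A1* (4.75), *COL4A2* (4.70), *COL6A1* (4.46), *COL4A5* (4.30), *COL6A2* (3.36) and *COL27A1* (3.07), and the library values of neighbours in this order overlapped. With the longest transcript in place of the union of exons, the first 3 places were the same and the next were *COL4A2* (14.0), *COL4A5* (7.82) and *COL4A6* (7.21). On the union of exons, *COL5A2* and *COL18A1* changed places in control, where *COL18A1* was the higher on average (32.6 against 27.4), and *COL7A1* held the third place in all 4 groups. Lower in the order, *COL4A6* stood at place 11 in control and at place 4 in sgScr, and *COL6A2* at place 4 in control and at place 14 in *LA*. By this measure the type IV genes together gave 6.56% and 10.5% of the collagen level in control, 16.3% and 13.9% in *LA*, 10.4% to 11.0% in sgScr and 11.9% in both sg*FOS* libraries.

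The first comparison set *LA* cells against control. Fusion, Cas9, guides, growth from single cells, culture and batch cannot be told apart in it. *LA* cells had more transcript of 4 of the 6 type IV chains (3 with the length and GC correction). They also had more of *COL5A1*, a minor fibrillar chain that regulates fibril diameter, and of *COL12A1*, a fibril-associated collagen. They had less of *COL26A1* and of *COL6A2*, though the latter did not pass the test with the correction. In bulk RNA, fewer cells with a transcript and less transcript per cell cannot be told apart. A gene was called where edgeR's quasi-likelihood test gave an adjusted p under 0.05 over all genes. Of the 23 collagen genes tested, 8 were called higher and 2 lower. Among all 14425 genes, 9.57% were called higher and 9.94% lower, so the share of collagens called lower was near that of all genes. The median log2 fold change was 1.04 over the collagens and 0.044 over all genes, and 19 of the 23 were above 0. With the length and GC correction, 6 collagens were called higher and 1 lower, where 5.69% and 7.87% of all genes were, and their median was 0.58.

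All 6 type IV genes had log2 fold changes above 0, and 4 passed the test. Their median was 1.56, and 0.97 with the length and GC correction, where 3 passed. *COL4A1* (chr13:110801310-110959504, minus strand, GRCh37 as for all gene positions here) had 7.75 and 13.8 CPM in control and 37.1 and 42.7 in *LA*, a log2 fold change of 1.86 ± 0.45 (SE, adjusted p = 0.00621). Its neighbour *COL4A2* (chr13:110958159-111165556, plus strand) had 774 and 724 counts in control and 1453 and 2023 in *LA*. That difference of 1.10 ± 0.39 on the log2 scale did not pass (adjusted p = 0.0515). These chains form the basement membrane network found in nearly all tissues.

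The X-linked pair differed by similar amounts. *COL4A5* (chrX:107683068-107940775, plus strand), the chain altered in X-linked Alport syndrome, had 20.7 and 26.4 CPM in control and 79.0 and 79.1 in *LA*, a 3.29-fold difference (log2 1.72 ± 0.41, adjusted p = 0.0057). *COL4A6* (chrX:107398837-107682727, minus strand) had 11.4 and 16.4 CPM in control against 59.9 and 47.4, which is 3.79-fold (log2 1.92 ± 0.43, adjusted p = 0.00425). Both kept their calls with the length and GC correction, at 1.17 (adjusted p = 0.023) and 1.41 (adjusted p = 0.0296), as did *COL4A1* at 1.35 (adjusted p = 0.0414).

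*COL4A4* and *COL4A3*, whose chains join with that of *COL4A5* in kidney and lung, were less clear. *COL4A4* (chr2:227867430-228029169) had 7.82 and 15.7 CPM in control and 26.8 and 36.7 in *LA*, with a log2 fold change of 1.40 ± 0.46 (adjusted p = 0.034). The call was lost with the correction (0.58, adjusted p = 0.292). *COL4A3* (chr2:228029340-228179508) had 5.17 and 10.1 CPM against 10.3 and 20.1, which did not pass (0.95 ± 0.50, adjusted p = 0.182). With the correction its value was 0.23 (adjusted p = 0.747). On the GRCh37 annotation *COL4A3* shares 838 bases of exon with the antisense gene *MFF-DT*, and the strand setting of the counting is not given in the sources used here.

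Among the fibrillar chains, *COL5A1* (chr9:137533649-137736689) had 23.8 and 13.8 CPM in control and 66.6 and 72.9 in *LA*. This 3.66-fold difference passed with and without the correction (log2 1.87 ± 0.43, adjusted p = 0.00447, and 1.36, adjusted p = 0.0155). Its partner *COL5A2* (chr2:189896624-190090038), with 157 and 244 CPM against 359 and 483, was separated between the groups but did not pass (1.04 ± 0.42, adjusted p = 0.0814). *COL11A1* (chr1:103342023-103574428), a chain of cartilage fibrils that many carcinomas also transcribe, had 31 and 45 counts in control and 130 and 213 in *LA* (log2 2.06 ± 0.55, adjusted p = 0.0119). With the correction it did not pass (1.36, adjusted p = 0.057). *COL27A1*, which had 823 and 289 counts in control and 498 and 709 in *LA*, overlapped between the groups.

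*COL12A1* (chr6:75794042-75915983) had the largest called increase among collagens with a mean of over 50 counts. Its level was 8.79 and 5.78 CPM in control, 28.4 in *LA* replicate 1 and 90.0 in *LA* replicate 2, so that the *LA* libraries themselves were far apart. The log2 fold change was 2.99 ± 0.51 (adjusted p = 0.000884), and the call was kept with the correction (adjusted p = 0.0309). *COL10A1* (chr6:116440072-116479910), a short-chain collagen of growth cartilage, had 1 and 0 counts in control and 11 and 28 in *LA*. Set against 3 counts in each control library, it was at least 6.04-fold higher (adjusted p = 0.00987, and 0.0332 with the correction).

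Both genes called lower were separated between the groups. *COL26A1* (chr7:101006156-101202304), a secreted collagen first found in testis and ovary, had 90 and 104 counts in control and 2 and 23 in *LA*. It was 8.52-fold lower (log2 -3.09 ± 0.76, adjusted p = 0.00734, and -2.83, adjusted p = 0.0346, with the correction). *COL6A2* (chr21:47518026-47552762) had 34.9 and 13.5 CPM in control against 8.47 and 8.94, a log2 fold change of -1.49 ± 0.48 (adjusted p = 0.0328) that did not pass with the correction (-1.01, adjusted p = 0.0759). Its neighbour *COL6A1* (chr21:47401684-47424964), which encodes the other abundant type VI chain, had 22.5 and 13.7 CPM against 21.6 and 28.3 and was not called (0.44 ± 0.43, adjusted p = 0.498).

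Of the most abundant genes, *COL18A1* and *COL7A1* were not called. *COL18A1* (chr21:46825080-46933634), the source of the fragment endostatin, had 317 and 234 CPM in control and 259 and 332 in *LA* (0.08 ± 0.41, adjusted p = 0.92). It shares 1563 bases of exon with *SLC19A1* on the opposite strand, which had 1196 and 709 counts in control and 664 and 657 in *LA*. *COL7A1* (chr3:48601506-48632762) had 227 and 67.5 CPM in control, so that 1 control library was level with *LA* (228 and 263 CPM) and the other was not (0.73 ± 0.46, adjusted p = 0.277). The other uncalled genes not named above had log2 fold changes from -0.41 to 1.14.

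The calls of this comparison rested on both *LA* libraries, and calls over the whole table also fell where an *LA* library was left out. Such fits leave a single library in a group, so only effect sizes are given. Without *LA* replicate 1 or 2 the collagen median was 1.23 or 0.54, where that of all genes was 0.019 or 0.0029. Without control replicate 1 or 2 the collagen median was 1.31 or 0.72, where that of all genes was 0.021 or 0.055. In these fits the single library was assumed to vary like those of the other group.

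**Figure D1:**
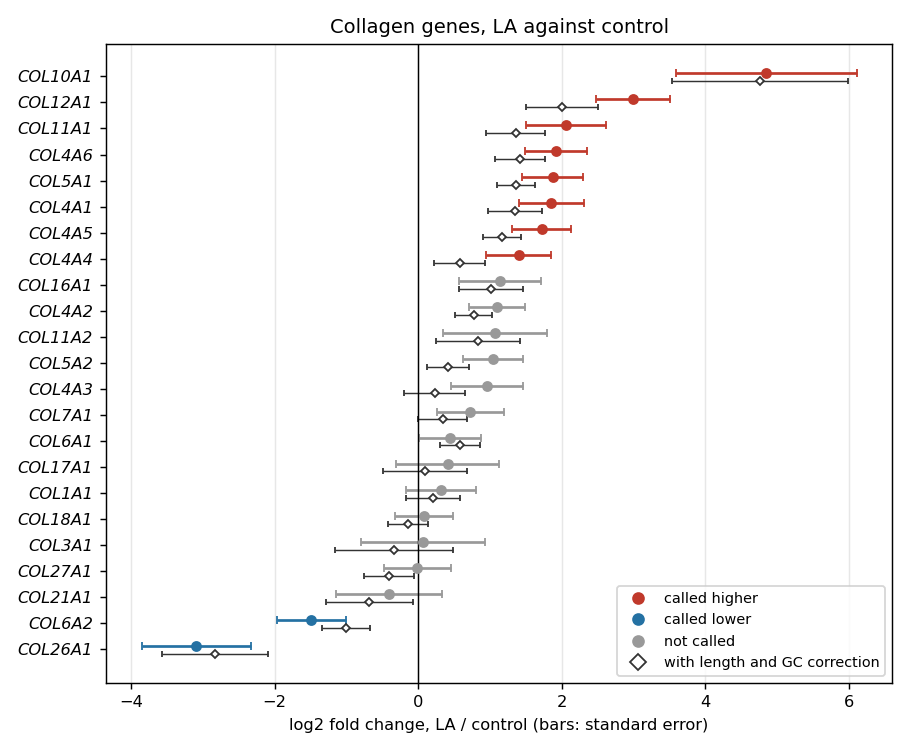
Log2 fold change of the 23 tested collagen genes in *LA* against control, with standard errors as bars. Filled circles are uncorrected values coloured by call, and open diamonds are values corrected for length and GC content, which lie to the left of the circle for every gene with a log2 fold change above 1. The fitted value of *COL10A1* depends on the near absence of counts in control.

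The second comparison set sg*FOS* against sgScr. Guide, clone, culture and batch cannot be told apart in it, and some collagens also differed between sgScr and *LA*, as given below. Whether editing *FOS* caused the differences was not tested. Here 12 of the 22 collagen genes tested were called higher in sg*FOS* than in sgScr and 1 was called lower. Among all 14196 genes, 12.2% were called higher and 10.5% lower. The median log2 fold change of the collagens was 0.30 and that of all genes was -0.0015. With the length and GC correction 11 were called higher and 1 lower, against 8.98% and 10.2% of all genes, and the collagen median was 0.27. The differences were mostly small. Of the 12, 7 exceeded a log2 fold change of 0.5 with an unadjusted p under 0.05, the threshold of the study methods. Among all genes, 3.73% passed it upwards and 2.03% downwards, and no collagen passed it downwards. With the correction, *COL4A2* (0.44) and *COL6A2* (0.46) of these 7 were under 0.5.

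*COL5A1* again stood out among the abundant genes. It had 38.9, 43.0 and 40.6 CPM in sgScr and 87.1 and 90.4 in sg*FOS*, a 2.18-fold difference (log2 1.12 ± 0.05, adjusted p = 4.36e-19). *COL5A2*, with 551 to 577 CPM in sgScr and 584 and 576 in sg*FOS*, was not called (0.05 ± 0.03, adjusted p = 0.291). *COL1A1* (chr17:48261462-48278993), the main fibrillar chain of skin and bone, had 7.23, 6.80 and 6.37 CPM against 9.76 and 8.78 (0.45 ± 0.14, adjusted p = 0.0159). Its call was lost with the correction (adjusted p = 0.0908) and in DESeq2. *COL27A1* was not called, with 42.3 to 51.2 CPM in sgScr and 47.4 and 54.7 in sg*FOS*.

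Both abundant type VI chains were higher. *COL6A1* had 19.4, 19.7 and 21.5 CPM in sgScr and 37.8 and 37.7 in sg*FOS*, which is 1.88-fold (log2 0.91 ± 0.07, adjusted p = 3.02e-12). *COL6A2* had 14.9, 15.8 and 17.1 CPM against 24.1 and 23.6 (log2 0.59 ± 0.09, adjusted p = 3.26e-06). The groups did not overlap for either gene.

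In type IV, 4 of the 6 chains were called higher and the third pair was not called. *COL4A1* had 33.8, 36.1 and 34.7 CPM in sgScr and 59.2 and 56.9 in sg*FOS* (log2 0.74 ± 0.06, adjusted p = 1.46e-12), and *COL4A2* had 84.2, 85.9 and 92.2 CPM against 132 and 125 (0.56 ± 0.04, adjusted p = 9.57e-13). The X-linked pair differed by less. *COL4A6* had 57.1, 55.3 and 53.7 CPM against 69.9 and 66.7 (0.30 ± 0.05, adjusted p = 2.27e-05), and *COL4A5* had 49.2, 49.5 and 42.6 CPM against 54.1 and 59.1 (0.26 ± 0.06, adjusted p = 0.00134). *COL4A3* had 7.29 to 8.04 CPM in sgScr and 7.18 and 7.72 in sg*FOS*, and *COL4A4* had 21.3 ± 1.72 CPM (SD, n = 3) against 20.3 ± 1.82 (SD, n = 2). Both overlapped between the groups. Their log2 fold changes were -0.03 ± 0.14 (adjusted p = 0.90) and -0.07 ± 0.09 (adjusted p = 0.646).

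*COL17A1* and *COL7A1*, which both act where epithelium is attached, were called higher. *COL17A1* (chr10:105791044-105845638), the hemidesmosome collagen, had 33, 29 and 29 counts in sgScr and 55 and 51 in sg*FOS*, which is 2.31-fold (log2 1.21 ± 0.24, adjusted p = 0.000259). *COL7A1*, the anchoring fibril collagen, had 142, 134 and 126 CPM against 178 and 193 (0.47 ± 0.04, adjusted p = 6.98e-11). *COL18A1* had 420, 403 and 444 CPM in sgScr and 517 and 503 in sg*FOS*, a difference of 0.28 ± 0.04 (adjusted p = 2.44e-07) that was 0.12 (adjusted p = 0.0411) with the correction. *COL16A1* (chr1:32117864-32169920), a fibril-associated collagen, had 5.04, 4.23 and 3.85 CPM against 6.71 and 6.92 (0.64 ± 0.17, adjusted p = 0.00449).

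*COL12A1* had the same level in both groups within their spread, with 25.6, 24.1 and 24.1 CPM in sgScr and 23.1 and 26.2 in sg*FOS* (0.01 ± 0.08, adjusted p = 0.965). *COL26A1* was the gene called lower, from 9.71, 9.52 and 7.24 CPM to 7.12 and 5.86 (-0.45 ± 0.15, adjusted p = 0.0285). It did not pass in DESeq2, or without sgScr replicate 1, sgScr replicate 2 or sg*FOS* replicate 2. The other uncalled genes had fewer than 50 counts in every library of these groups.

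The calls depended on the libraries that set the spread. In a single fit of all 9 libraries, where the spread of the control and *LA* libraries enters, edgeR called no collagen gene in either direction, and 5 were higher and 0 lower at an unadjusted p under 0.05. That fit called no gene of the whole table. Leaving out any one sgScr or sg*FOS* library left 11 or 12 collagens called higher, without *COL1A1* where sg*FOS* replicate 1 was left out and without *COL4A5* where sg*FOS* replicate 2 was.

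**Figure D2:**
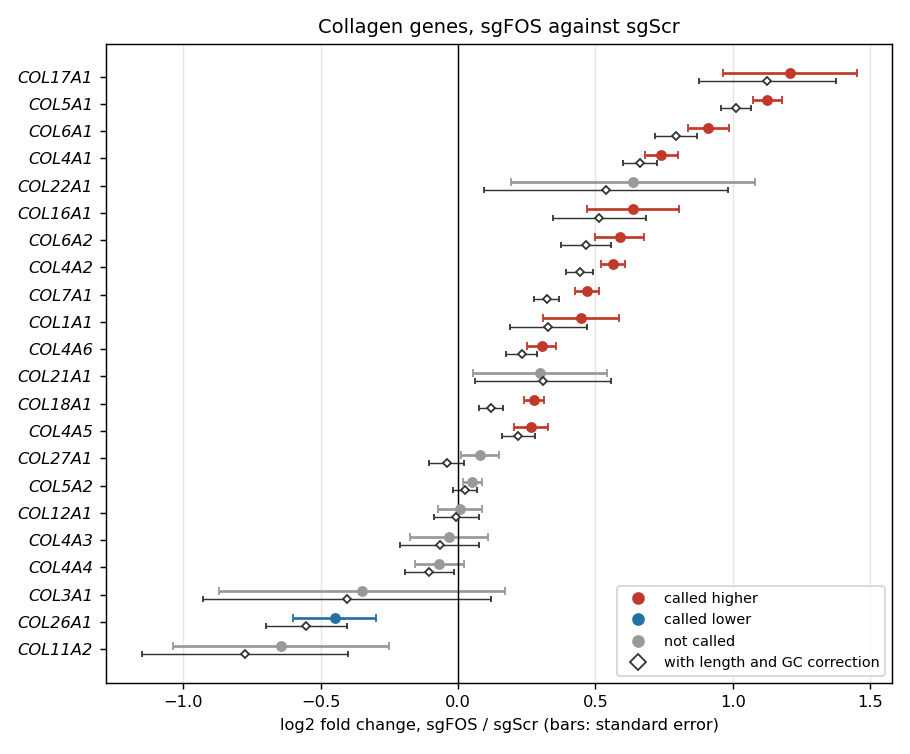
Log2 fold change of the 22 tested collagen genes in sg*FOS* against sgScr, with standard errors as bars, coloured by call, and with values corrected for length and GC content as open diamonds. The 12 genes called higher range from 0.26 (*COL4A5*) to 1.21 (*COL17A1*), and *COL5A2*, *COL12A1* and *COL27A1* lie close to 0.

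The third comparison set sgScr against *LA*, cells that the labels tell apart by the scramble guide. Guide, clone, culture and batch cannot be told apart here. It shares the *LA* libraries with the first comparison and the sgScr libraries with the second, so its values are given beside theirs and not as a separate line of evidence. Of 23 collagens tested, 3 were called higher in sgScr and 7 lower. Among all 14521 genes, 10.6% were called higher and 12.3% lower. The collagen median was -0.59, and that of all genes was -0.016. With the length and GC correction 6 were called higher and 7 lower, against 15.7% and 13.1% of all genes, *COL21A1*, *COL27A1* and *COL5A2* joining the genes called higher.

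*COL11A1* showed the clearest difference of any collagen between the libraries. It had 130 and 213 counts in *LA*, 0 in all 3 sgScr libraries, 0 and 1 in sg*FOS*, and 31 and 45 in control. Set against 3 counts in each sgScr library, it was at least 64.7-fold lower than in *LA* (adjusted p = 0.00342), and the call was kept under all 15 alternatives that gave an adjusted p. *COL11A2*, which encodes its partner chain, had 32 and 46 counts in *LA* and 36, 23 and 22 in sgScr (adjusted p = 0.13).

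*COL26A1* went the other way. Its 2 and 23 counts in *LA* compare with 204, 196 and 126 in sgScr, a 12.0-fold difference (log2 3.58 ± 0.62, adjusted p = 0.0141). *COL6A2* was also higher in sgScr, by 0.85 ± 0.13 (adjusted p = 0.0108), and so was *COL18A1*, by 0.49 ± 0.13 (adjusted p = 0.0395).

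Besides *COL11A1*, 6 genes were called lower in sgScr. *COL1A1* fell by 1.18 ± 0.14 on the log2 scale (adjusted p = 0.00521), *COL7A1* by 0.90 ± 0.10 (adjusted p = 0.00464), *COL5A1* by 0.79 ± 0.09 (adjusted p = 0.00505) and *COL4A5* by 0.77 ± 0.10 (adjusted p = 0.00642). *COL4A3* (-1.01 ± 0.28, adjusted p = 0.048) and *COL4A4* (-0.60 ± 0.16, adjusted p = 0.0453) passed narrowly. *COL4A6* (0.03 ± 0.12, adjusted p = 0.893), *COL4A1* (-0.22 ± 0.10, adjusted p = 0.176) and *COL4A2* (-0.23 ± 0.12, adjusted p = 0.213) were not called, and neither was *COL12A1* (-1.29 ± 0.43, adjusted p = 0.0764), whose value rests on the distance between the *LA* libraries. Without *LA* replicate 1 or 2 the collagen median was -0.75 or -0.12, where that of all genes was -0.0037 or 0.0025. Without sgScr replicate 1, 2 or 3 no collagen was called higher, and 5, 3 or 1 were called lower. At an unadjusted p under 0.05 edgeR gave 3, 3 or 5 higher. Among all genes, 222, 203 or 171 were called higher in these fits and 310, 252 or 218 lower.

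**Figure D3:**
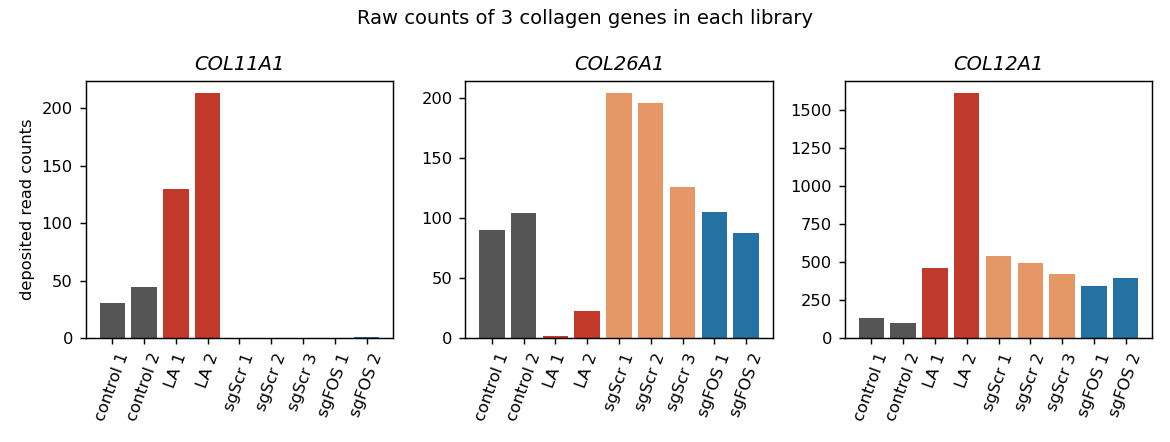
Deposited read counts of *COL11A1*, *COL26A1* and *COL12A1* in each of the 9 libraries, as bars coloured by group. *COL11A1* has 130 and 213 counts in *LA* and at most 1 in the sgScr and sg*FOS* libraries, *COL26A1* has 2 and 23 counts in *LA* and 88 to 204 elsewhere, and *COL12A1* has 1610 counts in *LA* replicate 2.

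Chains that assemble together did not keep 1 ratio. The ratios are within a library and free of library scaling, but not of trends with length or GC content. They are given as values with no test. *COL4A2* had 6.45 and 3.09 times the counts of *COL4A1* in control, 2.40 and 2.65 times in *LA*, 2.38 to 2.66 times in sgScr, and 2.23 and 2.20 times in sg*FOS*. The 7 libraries with the fusion thus lay between 2.20 and 2.66, and both control libraries above them. With the length and GC correction the gap was narrower. The log2 ratio of *COL4A1* to *COL4A2* was then -2.34 and -1.62 in control and -1.49 to -1.17 in the libraries with the fusion.

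Per kilobase of exon, *COL4A6* had 0.701 and 0.795 times the level of *COL4A5* in control, 0.971 and 0.766 times in *LA*, 1.43 to 1.61 times in sgScr, and 1.65 and 1.44 times in sg*FOS*. The ratio was below 1 in control and *LA* and above 1 in all 5 libraries that carry a further guide. *COL4A4* had 1.51 and 1.56 times the counts of *COL4A3* in control, 2.60 and 1.83 times in *LA*, 2.74 to 2.89 times in sgScr, and 2.65 and 2.80 times in sg*FOS*. Control was lowest for this pair, and the *LA* libraries were apart from each other.

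**Figure D4:**
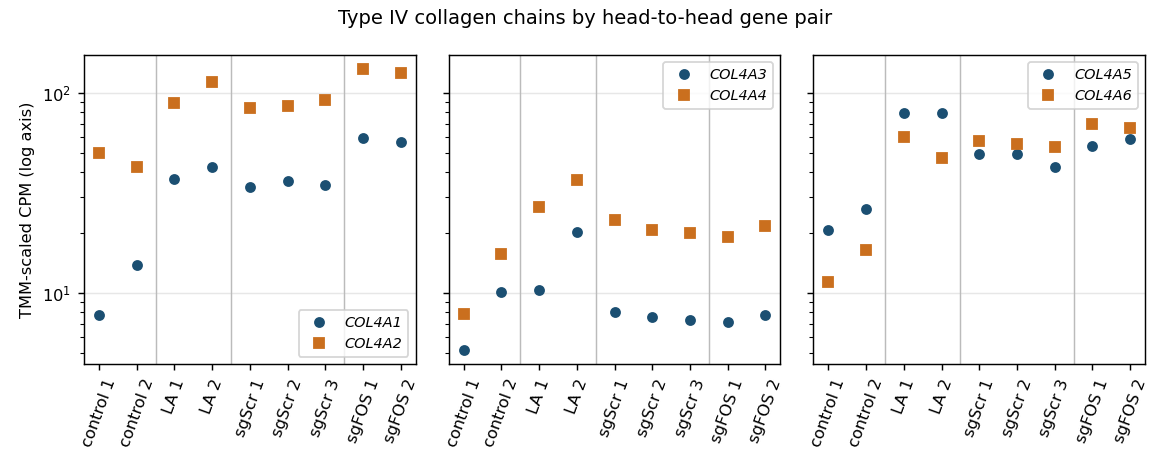
TMM-scaled CPM, on a log axis, of the 6 type IV collagen genes in each library, drawn by head-to-head pair with group borders as vertical lines. *COL4A1* and *COL4A2* are both lowest in the control libraries and highest in the sg*FOS* libraries, while *COL4A6* lies under *COL4A5* in control and *LA* and above it in sgScr and sg*FOS*.

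The type VI ratio differed between the groups as well, and the type V ratio between sgScr and the *LA* or sg*FOS* libraries. Per kilobase of exon, *COL5A2* was 10.1 and 26.9 times the level of *COL5A1* in control, 8.22 and 10.1 times in *LA*, 19.7 to 21.7 times in sgScr, and 10.2 and 9.71 times in sg*FOS*. The sg*FOS* and *LA* ratios overlapped, and all sgScr ratios were higher than both. The control libraries lay on either side of the sgScr ratios. *COL6A2* was 1.61 and 1.02 times the level of *COL6A1* in control, 0.407 and 0.328 times in *LA*, 0.798 to 0.835 times in sgScr, and 0.660 and 0.649 times in sg*FOS*, so that the groups did not overlap. The ratio for *COL1A1* and *COL1A2* could not be formed, since *COL1A2* was at or near 0 in all 9 libraries while *COL1A1* had 111 to 271 counts.

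Collagen chains are hydroxylated and folded in the endoplasmic reticulum, exported in large carriers, trimmed outside the cell, cross-linked and bound by receptors. A list of 54 genes for these steps was all in the table. In *LA* against control 43 were tested, 4 were called higher (9.30%, near the 9.57% of all genes) and 1 lower. *PLOD2*, the lysyl hydroxylase that sets the stable form of cross-link, had 117 and 172 CPM in control and 369 and 367 in *LA* (log2 1.32 ± 0.41, adjusted p = 0.0275). *ITGA2*, a collagen-binding integrin chain, had 12.0 and 27.3 CPM against 54.3 and 79.3 (1.73 ± 0.45, adjusted p = 0.0105), and *ITGA1*, another, had 0.323 and 2.30 CPM against 10.9 and 4.69 (2.52 ± 0.72, adjusted p = 0.017). With the length and GC correction none of these passed, at adjusted p of 0.0911, 0.0628 and 0.108.

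*MIA2*, which takes part in procollagen export and was named after its values were seen, had 0 and 0.177 CPM in control and 6.45 and 3.97 in *LA*, at least 28.1-fold higher against 3 counts per library (adjusted p = 0.000696, and 0.00966 with the correction). *PCOLCE*, an enhancer of procollagen trimming, was the gene called lower, with 16.8 and 7.14 CPM against 3.32 and 3.46 (-1.83 ± 0.54, adjusted p = 0.0205), and did not pass with the correction (adjusted p = 0.174). The collagen chaperone *SERPINH1* (-0.02 ± 0.39), the prolyl hydroxylase subunits *P4HA1* (-0.18 ± 0.42) and *P4HA2* (0.45 ± 0.42), the cross-linking enzymes *LOX* (-0.72 ± 0.74) and *LOXL2* (1.05 ± 0.45), and the receptor *DDR1* (0.35 ± 0.40) were not called, with adjusted p from 0.101 to 0.977.

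In sg*FOS* against sgScr, 44 of these genes were tested, 13 were called higher (29.5%) and 3 lower, beside the 12.2% and 10.5% of all genes. *ITGA2* had 88.9, 93.0 and 89.9 CPM in sgScr and 131 and 126 in sg*FOS* (0.51 ± 0.04, adjusted p = 3.33e-12). *BMP1*, a procollagen C-proteinase, was higher by 0.41 ± 0.05 (adjusted p = 2.43e-07), and *SERPINH1* by 0.21 ± 0.04 (adjusted p = 0.000313). Among enzymes of modification, *P4HA3* was higher by 0.64 ± 0.15 (adjusted p = 0.00108), *PLOD3* by 0.19 ± 0.05 (adjusted p = 0.00529) and *PLOD2* by 0.18 ± 0.03 (adjusted p = 0.000152). *P4HA1* was lower, with a log2 fold change of -0.20 ± 0.05 (adjusted p = 0.00546), as was *P3H3*, at -0.22 ± 0.07 (adjusted p = 0.0232).

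The cross-linking genes moved both ways. *LOXL4* was higher by 0.76 ± 0.18 (adjusted p = 0.00151) and *LOXL2* by 0.20 ± 0.04 (adjusted p = 6.35e-05). *LOXL3*, at a low level and named after its values were seen, had a log2 fold change of -1.12 ± 0.37 (adjusted p = 0.0257), and *LOX* did not pass (-0.65 ± 0.32, adjusted p = 0.14). *DDR1* (0.21 ± 0.04, adjusted p = 0.000102), and the export genes *SAR1A* (0.16 ± 0.04, adjusted p = 0.00457) and *SEC31A* (0.16 ± 0.04, adjusted p = 0.00292), were called higher by small amounts. With the length and GC correction *DDR1* (adjusted p = 0.102) and *PLOD3* (adjusted p = 0.183) were not called. *P4HA2* was not called (0.02 ± 0.06, adjusted p = 0.815).

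In sgScr against *LA*, 45 were tested, 7 were called higher (15.6%) and 3 lower, beside the 10.6% and 12.3% of all genes. *P4HA1* had 30.5 and 24.1 CPM in *LA* and 63.7, 67.0 and 69.4 in sgScr (1.27 ± 0.13, adjusted p = 0.00336). *SERPINH1* had 74.2 and 54.0 CPM against 106, 107 and 116 (0.76 ± 0.15, adjusted p = 0.0194). *PLOD1* was higher by 0.83 ± 0.09 (adjusted p = 0.00368), *P4HA2* by 0.52 ± 0.13 (adjusted p = 0.0341), and the collagen uptake receptor *MRC2* by 1.04 ± 0.09 (adjusted p = 0.00223). *BMP1* had a log2 fold change of -1.10 ± 0.15 (adjusted p = 0.00701), *P3H2* one of -0.41 ± 0.08 (adjusted p = 0.0194) and *ITGA11*, named after its values were seen, one of -1.18 ± 0.25 (adjusted p = 0.0231). *PLOD2*, *LOX*, *LOXL2*, *ITGA2* and *DDR1* were not called.

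Markers of other cell types that make collagen were near 0. Of 5 epithelial markers, *KRT8* had 2871 to 10271 CPM, *KRT18* 1646 to 7372, *KRT19* 32.6 to 174, *CDH1* 18.5 to 101 and *EPCAM* 3.01 to 13.1. In *LA* against control only *CDH1* was called, higher by 2.28 ± 0.41 on the log2 scale (adjusted p = 0.00123), and the other 4 had log2 fold changes under 0, with a median over the 5 of -0.70. In sg*FOS* against sgScr, *KRT8* (0.23 ± 0.03), *KRT18* (0.15 ± 0.03) and *KRT19* (0.86 ± 0.04) were called higher, as the collagens were, and *KRT18* was not called with the length and GC correction. The part of this in the collagen differences was not tested. Of 7 fibroblast markers other than collagens, *FAP* was at 0 in all libraries and *THY1* gave most of the sum, which was 8.20 and 8.53 CPM in control, 5.64 and 5.83 in *LA*, 7.01 to 7.34 in sgScr, and 9.18 and 9.29 in sg*FOS*. Without *THY1* the sum of the other 6 was 0.517 to 1.23 CPM. The 4 endothelial markers summed to 0.0486 to 1.06 CPM, and the immune markers *PTPRC* and *CD3E* were at 0 in all libraries while *CD68* had 23.5 to 46.6 CPM. Thus *THY1* and *CD68* were the exceptions to markers at or near 0. In sg*FOS* against sgScr both were called higher, with log2 fold changes of 0.38 and 0.65, the former not with the length and GC correction, and their part in the collagen differences was not tested.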

How the data were processed

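For 9 A549 RNA-seq libraries, the authors deposited read counts per gene as raw whole numbers, not normalized. The methods and processing notes name stranded mRNA libraries, paired-end reads, hg19, STAR 2.7.10b and DESeq2 1.26.0. How reads were assigned to genes (program, annotation, strand) is not given in the sources used here. Groups came from the sample labels. The table holds 28 gene names that look like dates, kept in the tests and not named. Unused sample columns numbered 0.

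Each comparison was fitted in R 4.3.3 with edgeR 4.0.16 on its own libraries (TMM, filterByExpr, quasi-likelihood test, two-sided), with Benjamini-Hochberg adjustment over all genes tested. CPM were scaled over all 9 libraries. Lengths, positions and overlaps came from GENCODE v44lift37 on GRCh37, where 22494 names matched directly, 1337 by a former symbol and 862 by gene number. The length and GC correction was a loess curve (span 0.5) per library, entered as an offset. A fold against libraries at or under 3 counts is a bound. Such limits cover counting error only, without molecular identifiers. Promoter windows came from RefSeq. Python 3.11.15 was used for tables and plots.

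On simulated counts with 200 changed genes, log2 changes of 2 and 1 were recovered for 50.5% and 2.06% of changed genes in *LA* against control (14408 tested), 99.0% and 93.9% in sg*FOS* against sgScr (14147 tested), and 100% and 81.2% in sgScr against *LA* (14453 tested). Of the calls on simulated counts, 5.56%, 4.52% and 9.28% were false. Those counts had the same spread for every gene and no trend with length or GC content. The shares therefore need not hold for the real libraries.

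The members and lists were chosen with earlier results of these data known. The text gives full values for called collagens and for the 10 with the highest mean level, and for other lists up to 3 called genes in each direction with a mean of at least 50 counts, plus 8 set genes. Alternatives were DESeq2 1.42.0, other scalings and filters, all 9 libraries in a single fit, a replicate block, the length and GC correction, the study's threshold and leaving out each library. 1 marker gene is not reported here.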

Additional observations from a re-analysis of the deposited data

How the results depend on the processing

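Alternatives gave values for genes named in the text 1371 times, and the direction and the call were both kept in 1124. In 167 a call was lost, in 39 one was gained, and in 41 the sign turned. The main limits were the 2 libraries in control, *LA* and sg*FOS*, and the distance between the *LA* libraries and between the control libraries. In *LA* against control, scaling by library size alone moved the median of all genes from 0.044 to 0.33 on the log2 scale and turned 1380 higher and 1434 lower calls into 1599 and 680. Causes were not tested.

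For the collagen genes of *LA* against control (8 higher, 2 lower), leaving out a library gave median log2 fold changes of 0.54 to 1.31. Library size alone, the replicate block, the length and GC correction, and both together each gave 1 lower. Over all genes these settings gave, in the same order, 680, 728, 1114 and 1280 lower, where the main fit gave 1434. For sg*FOS* against sgScr (12 higher, 1 lower), the single fit of all 9 libraries gave 0 and 0 and the study's threshold 7 and 0. DESeq2 gave 0 lower (1 at an unadjusted p under 0.05), and leaving out an sgScr library gave 12 higher and 0 to 1 lower. Among all genes, the single fit gave 0 and 0, the study's threshold 530 and 288, and DESeq2 879 lower. Leaving out an sgScr library gave 1358 to 1843 of all genes higher and 1046 to 1676 lower. For sgScr against *LA* (3 higher, 7 lower), the single fit gave 1 and 3, the replicate block 1 higher, the correction 6 higher, the block with the correction 4 lower, and leaving out a library 0 to 7 higher and 1 to 18 lower.

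For the assembly and receptor genes of *LA* against control (4 higher, 1 lower), the single fit gave 13 and 3. The correction gave 2 higher, the study's threshold 10 higher, library size alone and the replicate block 0 lower each, and the block with the correction 2 lower. Among all genes, the single fit gave 3555 and 3215, the correction 806 higher and the study's threshold 2505 higher. Library size alone, the replicate block and the block with the correction gave 680, 728 and 1280 of all genes lower. Leaving out a library gave median log2 fold changes of 0.030 to 0.24 for the assembly and receptor genes. For sg*FOS* against sgScr (13 higher, 3 lower), the single fit gave 0 and 0 and the study's threshold 5 higher. DESeq2 and the replicate block gave 1 lower each, the correction 5 lower, and leaving out an sgScr library 12 to 14 higher and 2 to 4 lower. Among all genes, the single fit gave 0 and 0 and the study's threshold 530 higher. DESeq2, the replicate block and the correction gave 879, 1480 and 1417 of all genes lower. For sgScr against *LA* (7 higher, 3 lower), the single fit and the replicate block gave 4 higher each, DESeq2 and library size alone 6 lower each, the block 1 lower, the correction 5 lower, the block with the correction 1 lower, and leaving out a library 3 to 19 higher and 0 to 15 lower.

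The same replicate numbers did not pair the samples. Deviations of same-numbered libraries correlated at -0.22 in *LA* against control, -0.12 and 0.0090 in sg*FOS* against sgScr, and -0.034 and -0.0098 in sgScr against *LA*. The crossed pairing for *LA* against control, added after seeing the data, gave 1977 genes higher and 1901 lower where the replicate block gave 791 and 728, with 9 collagens higher and 2 lower, and 8 assembly genes higher.

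Signs turned for values that had not been called. In *LA* against control, *COL18A1* was -0.14 with the correction and -0.13 with the block added. *COL27A1* was 0.34 with library size alone, 0.0094 in the single fit, 0.18 with the block and 0.18 with the crossed block. *SERPINH1* was 0.26 with library size alone, 0.0043 in the single fit, 0.10 with the correction and 0.067 with the block added, and *P4HA1* was 0.077 with library size alone. In sg*FOS* against sgScr, *COL27A1* was -0.0014 with the block, -0.040 with the correction and -0.12 with both, and *COL12A1* was -0.00090 with upper quartile scaling, -0.0065 with the block, -0.0060 with the correction and -0.0093 with both. In sgScr against *LA*, *COL4A2* was 0.014 with the correction, *COL4A6* was -0.024 with library size alone, and *LOXL2* was 0.018 with the block, 0.080 with the correction and 0.12 with both. Leaving out a library in *LA* against control gave -0.19 to 0.26 for *COL18A1*, -0.69 to 0.97 for *COL27A1*, -0.31 to 0.21 for *SERPINH1*, -0.49 to 0.074 for *P4HA1* and -0.0091 to 0.62 for *DDR1*. In sg*FOS* against sgScr it gave -0.088 to 0.015 for *COL4A3*, -0.16 to 0.019 for *COL4A4*, -0.028 to 0.18 for *COL27A1* and -0.089 to 0.093 for *COL12A1*. In sgScr against *LA* it gave -0.13 to 0.22 for *COL4A6* and -0.56 to 0.67 for *LOXL2*. The latter was -0.56 without *LA* replicate 1 and 0.67 without *LA* replicate 2.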
